A study of Mus musculus with 13 samples.

Results

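The 2 libraries compared here were made from small RNA of differentiated HOXB8 cells, captured through a biotin tag on metabolically labelled glycans and sequenced either as captured (biotin library) or after digestion of the captured RNA with PNGase F (PNGase F library). They are 2 of the 13 samples of the series and 2 of its 9 small RNA libraries, with 1 library a side, and were chosen by their labels alone. All 18385 sequences of the deposited small RNA table were compared, by annotated RNA class, by annotated record and by read length. HOXB8 cells are a mouse myeloid progenitor line. In both groups, cells of this line had been washed free of the 1 µM β-estradiol used for growth, kept in 100 ng/ml SCF, and fed for 36 h with 100 µM Ac4ManNAz together with 10 µM Gal and 100 µM GalNAc. DBCO-PEG4-biotin was then reacted with the harvested RNA, and streptavidin beads purified it. The labels do not say whether the PNGase F library holds RNA that the enzyme set free or RNA that stayed on the beads, how long the digestion ran, or whether both libraries came from 1 culture. No mock digestion without enzyme is among the samples analysed here, and with 1 library a side there is no replicate check and no test: every interval below is a 95% interval of counting error only.

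Ac4ManNAz enters the sialic acid pathway of the cell and places an azide on sialic acid, the sugar that caps many glycans, and the azide takes up the biotin by click chemistry. PNGase F is an amidase that cuts N-glycans from asparagine in proteins. Small RNAs reported to carry such glycans are known as glycoRNAs. The fragments read here are short pieces of longer RNAs, above all of ribosomal RNA, which is cut from 1 long 45S precursor: the 5′ external transcribed spacer (5′ ETS) is removed, and the 18S, 5.8S and 28S rRNAs stay in the ribosome.

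The most abundant sequences are shown first, since they hold most of the reads in both libraries. The capitals mark the bases that nested sequences share. In the 28S part of the 45S record, 3 sequences that end at position 9903 were the following.
28S, positions 9879 to 9903: gatATAGACAGCAGGACGGTGGCCA
28S, positions 9880 to 9903: atATAGACAGCAGGACGGTGGCCA
28S, positions 9882 to 9903: ATAGACAGCAGGACGGTGGCCA
In the 5′ ETS part of the same record, 3 sequences that end at position 672 led. Their capitals mark the last 18 bases, which they also share with a G form shown further below. The 3 sequences themselves share all bases from 652 to 672.
5′ ETS, positions 652 to 672: tctTAGATCGATGTGGTGCTC
5′ ETS, positions 651 to 672: ctctTAGATCGATGTGGTGCTC
5′ ETS, positions 650 to 672: actctTAGATCGATGTGGTGCTC
Among reads placed on the genome (mm10, coordinates as the table gives them) a 16-base sequence led, and the next pair overlapped each other.
chr7:81731500-81731515, reverse strand: agcggagtagagcagt
chrX:142215582-142215599, reverse strand: tTAAGTAAGAGTATTTGG
chr11:27502519-27502535, reverse strand: TAAGTAAGAGTATTTGG
A sequence of 16 to 18 bases can fit several places of a genome, so these positions are the table's and name no gene. The names of the parts of the 45S record follow from the known order of the precursor and were not checked by sequence.

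Relative to all reads of the library, these leading sequences stood at similar levels in both. Levels are in RPM, reads per 1000000 reads of the library. Such levels show the composition of a library and not the amount of RNA in it. An even loss of captured RNA would leave them unchanged, and the amount was not measured here. In the biotin library 1 read was worth 0.124 RPM, and in the PNGase F library 0.155 RPM. The 25-base 28S sequence stood at 214556 RPM in the biotin library and 212253 RPM in the PNGase F library, a ratio of 0.989 (0.987 to 0.991). The 16-base chr7 sequence stood at 192251 and 189676 RPM, a ratio of 0.987 (0.984 to 0.989). The 21-base 5′ ETS sequence was the one of these 3 that was higher after PNGase F, with 86566 RPM against 96845 RPM and a ratio of 1.12 (1.11 to 1.12). Its 22-base neighbour went the same way, from 33450 to 37554 RPM. The 24-base and 22-base forms of the 28S sequence stood at 66711 and 6627 RPM in the biotin library and at 64818 and 5614 RPM after PNGase F. The 23-base form gatagacagcaggacggtggcca, placed at 9881 to 9903 but without an exact match in the 45S sequence rebuilt from the reads, stood at 19932 and 19531 RPM. Of the 10 sequences with the highest mean level, the 22-base 28S form showed the lowest ratio, 0.847 (0.836 to 0.859).

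Both captured libraries stood at similar distances from the input of the same cells, the gel-purified RNA under 300 nt. The 25-base 28S sequence was at 1198 RPM in the input, so that its level was 179-fold higher in the biotin library and 177-fold higher in the PNGase F library. The chr7 sequence was at 6041 RPM in the input and 31.8-fold and 31.4-fold higher in the 2 libraries, and the 21-base 5′ ETS sequence was at 18130 RPM and 4.77-fold and 5.34-fold higher. These ratios share 1 input library, so they restate the comparison of the pair against a common denominator. In the capture on wheat germ agglutinin (WGA), a lectin that binds sialic acid and N-acetylglucosamine, the same 3 sequences stood at 196610, 252595 and 99821 RPM in differentiated cells.

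**Figure D1:**
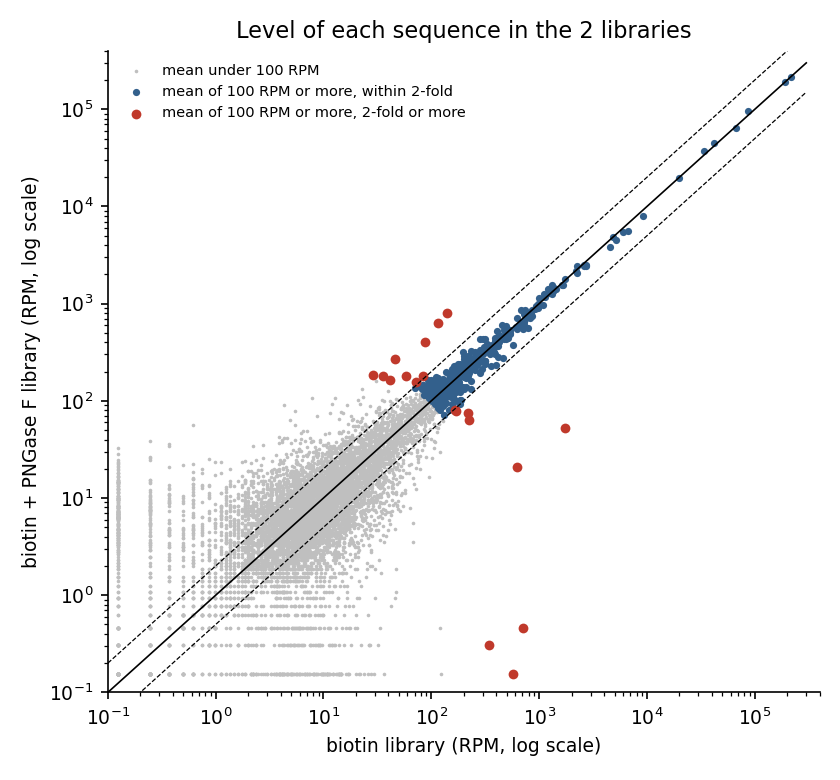
Level of each sequence in the biotin library (x axis, RPM, log scale) and in the PNGase F library (y axis, RPM, log scale), for sequences read in both. The solid line marks equal levels and the dashed lines 2-fold. The leading sequences lie on the line, and 20 of 350 sequences at a mean of 100 RPM or more lie 2-fold or more apart (1 of the 20 has no read in the PNGase F library and is not drawn).

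Over all sequences of some abundance, few differed by 2-fold. Of 350 sequences with a mean of 100 RPM or more over the 2 libraries, which held 86.7% of the table in the biotin library and 87.1% in the PNGase F library, 20 were 2-fold or more apart (5.71%). Of these, 10 were higher after PNGase F (2.86%) and 10 were lower (2.86%). The median log2 ratio was -0.01, with quartiles of -0.19 and 0.22, and 174 sequences were higher after PNGase F. Within 1.5-fold lay 299 of them (85.4%), and within 1.25-fold 234 (66.9%). For 265 of the 350 the counting interval of the ratio did not hold 1, so most of these small differences exceeded counting error. How far 2 libraries of the same RNA would differ could not be measured with 1 library a side. The nearest sequences that stayed inside the 2-fold limit had log2 ratios of -0.98 and -0.91 on the lower side and of 0.92 and 0.94 on the higher side.

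The ribosomal and genome classes, which together make up most of the table, differed in share by less than 0.01 on the log2 scale before and after digestion. rRNA took 61.9% of the table in the biotin library (61.87 to 61.94%) and 62.2% after PNGase F (62.20 to 62.28%). Reads placed on the genome took 27.4% in both. The ncRNA class took 4.25% and 4.11%, the miRNA class 1.66% and 1.63%, the snoRNA class 1.51% and 1.43%, and the tRNA class 1.46% and 1.37%. On the log2 scale the ratio of shares was -0.09 for tRNA fragments (-0.10 to -0.08) and -0.08 for snoRNA fragments (-0.09 to -0.07), the 2 greatest distances among the 6 classes that held 1% or more. The direction for tRNA turned without the 10 highest sequences of each library, to 0.14, and over distinct sequences, to 0.03. Counting error is small here, with 110111 tRNA reads and 113304 snoRNA reads in the biotin library and 82759 and 85895 in the PNGase F library. The table held 93.5% of all reads of the biotin library and 93.4% of the PNGase F library, from 8047029 and 6449281 library reads.

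**Figure D2:**
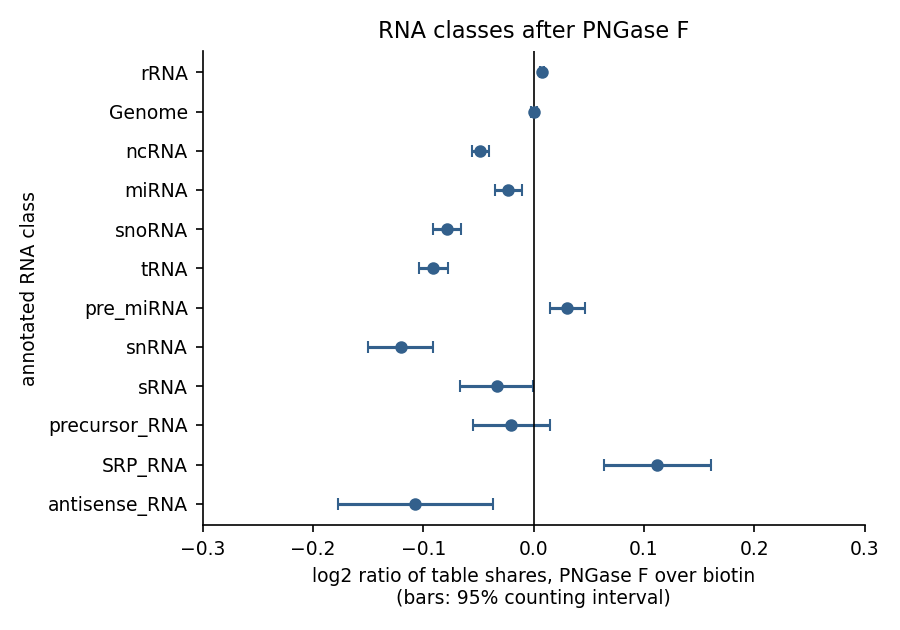
Log2 ratio of the share of each annotated RNA class in the table, PNGase F library over biotin library (points), with 95% counting intervals (bars), for the 12 classes with a mean of 100 RPM or more, the most abundant at the top. All classes lie between -0.12 and 0.11.

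Among smaller classes, snRNA and SRP RNA fragments were farther from equal. Fragments of the snRNA class, whose families the annotation does not name, were at 2770 RPM in the biotin library and 2544 RPM after PNGase F. The ratio was lower by 0.12 on the log2 scale. Among sequences of 20 bases or more the direction turned, and snRNA fragments were higher by 0.12. Fragments of SRP RNA (7SL, the RNA of the particle that guides ribosomes to the endoplasmic reticulum) were at 929 and 1003 RPM, higher by 0.11. Within SRP RNA, 1 of the 3 sequences at a mean of 100 RPM or more was higher: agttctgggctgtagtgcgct stood at 154 RPM and 212 RPM, while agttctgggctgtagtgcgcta, which is 1 base longer, stood at 360 and 354 RPM. The 1 Y RNA sequence of the table, catgttgaacgggatg, had 84 reads (10.4 RPM) in the biotin library and 0 in the PNGase F library. With the 3 reads that a count of 0 allows, it was at least 22.4-fold lower. It was 1 of 537 sequences at 10 RPM or more in the biotin library with 0 reads in the PNGase F library. At a mean of 10 to 20 RPM, above its own mean of 5.22 RPM, 41.9% of all sequences were 2-fold or more apart. Y RNAs bind the Ro60 protein and were among the first RNAs described as glycosylated on cell surfaces. The result rests on 1 sequence of 16 bases, and its level in the input was 3.68 RPM and in the WGA library 0. The pre-miRNA class was at 8944 and 9123 RPM, the sRNA class at 2068 and 2018 RPM, the precursor RNA class at 1854 and 1826 RPM and the antisense RNA class at 480 and 445 RPM. The 1 RNase MRP RNA sequence had 19 and 31 reads, and the 2 RNase P RNA sequences had 0 reads in both libraries. The class named other had 93 reads in the biotin library and 1 read in the PNGase F library, 74.5-fold lower (13.1 to 2975). That ratio sets different sequences against each other. The class holds 2 sequences of 16 bases, and the one with the 93 reads had 0 after PNGase F.

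**Figure D3:**
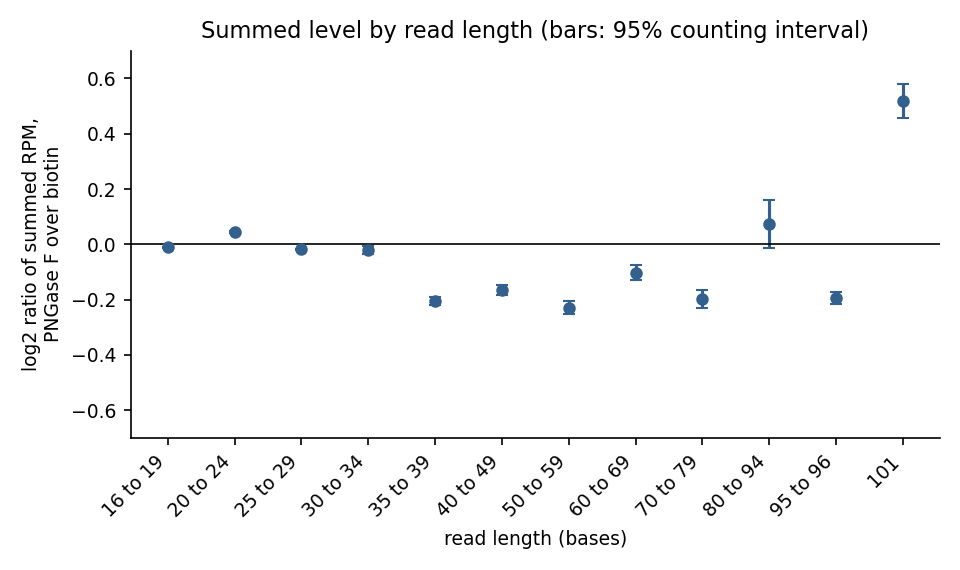
Log2 ratio of summed RPM, PNGase F library over biotin library (y axis), by read length in bases (x axis). Points are sums over all sequences of that length range and bars 95% counting intervals. Reads of 35 to 79 bases and of 95 to 96 bases lie below 0, and 101-base reads lie above it.

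Reads of 30 or more bases summed to slightly less after PNGase F. Reads of 16 to 19 bases took 37.4% of the table in the biotin library and 37.2% after PNGase F, and reads of 20 to 29 bases took 57.4% and 58.1%. Reads of 30 to 39 bases took 2.70% and 2.50%, a ratio of summed RPM of 0.924 (0.918 to 0.930), and reads of 40 to 101 bases 2.53% and 2.27%, a ratio of 0.897 (0.891 to 0.903). Counted over distinct sequences the difference was lost, with log2 ratios of 0.004 at 30 to 39 bases and 0.002 at 40 or more. In rRNA the ratio of reads of 40 or more bases was lower by 0.15 on the log2 scale, in snoRNA by 0.17, in tRNA by 0.19 and in ncRNA by 0.12. In the miRNA class the summed level of reads of 40 or more bases was 262 RPM before and 139 RPM after, lower by 0.91. Reads of 21 bases went from 105009 to 113832 RPM and reads of 22 bases from 56760 to 59801 RPM, which are the lengths of the 2 leading 5′ ETS sequences.

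Among reads of 80 or more bases, those of 101 bases, the longest of the table, were higher after PNGase F. Reads of 101 bases summed to 510 RPM in the biotin library and 730 RPM after PNGase F, a ratio of 1.43 (1.37 to 1.49). Reads of 80 to 94 bases were at 292 and 308 RPM, a ratio of 1.05 whose interval (0.991 to 1.12) held 1. Reads of 95 to 96 bases, which were more abundant, went the other way, from 5788 to 5060 RPM, a ratio of 0.874 (0.862 to 0.887). The 101-base reads on the 45S record went from 170 to 363 RPM. The most abundant begins at position 6877, at the 5′ end of 5.8S rRNA, the small rRNA that pairs with 28S, and is shown because it passed 2-fold.
5.8S, positions 6877 to 6977: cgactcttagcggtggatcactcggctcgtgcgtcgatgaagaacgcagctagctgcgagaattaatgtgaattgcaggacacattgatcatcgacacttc
It stood at 83.0 RPM in the biotin library and 181 RPM in the PNGase F library, a ratio of 2.18 (1.980 to 2.401). In the input it was at 116 RPM and in the WGA library at 0.469 RPM, so its level in the PNGase F library was above that of the input and its level in the biotin library below it.

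Along the 45S precursor, levels were summed in windows of 500 bases. Where the level was above 1000 RPM, the log2 ratio ran from -0.19 to 0.14. The highest was that of the window from 501 to 1000, which holds the 5′ ETS fragments, with 127638 RPM before and 140244 RPM after. The window from 9501 to 10000, which holds the 28S fragments that end at 9903, stood at 316845 and 312048 RPM. The window with the lowest ratio ran from 11501 to 12000, with 11879 RPM before and 10395 RPM after. A 28-base sequence in it that starts at 11772, tcctcgcgtcggggtcggggcacgccgg, stood at 4492 and 3868 RPM. All 455 sequences that end at 9903 summed to 315292 and 310582 RPM, 33.7% and 33.2% of the table. All 130 that end at 672 summed to 126410 and 139110 RPM, 13.5% and 14.9%.

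Among annotated records no sum was 2-fold apart. Of all records with a mean summed level of 100 RPM or more (each chromosome counts as 1 record for reads placed on the genome), 0 passed 2-fold (0%). The lowest ratio was that of an ncRNA record, 260 RPM before and 152 RPM after, lower by 0.78 on the log2 scale (ratio 0.584, 0.540 to 0.630). The record with the highest ratio was a pre-miRNA record of 1 sequence, at 98.4 and 166 RPM, higher by 0.75. The other 9 lowest records lay between -0.66 and -0.42 and included 2 tRNA records, 1 record each of snRNA and snoRNA. The other 9 highest lay between 0.42 and 0.67 and included 1 SRP RNA record and 2 snoRNA records.

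The largest differences between the 2 libraries were between forms of a sequence that differ at 1 base. Of the 20 sequences past 2-fold, 14 (70%) had a partner of the same length in the table with 1 other base. Of all 350 sequences at a mean of 100 RPM or more, 206 (58.9%) had such a partner, so having one is common. For 1 of the 14, the short 28S end that starts at 9886, the partner had 0 reads in both libraries. In 9 of the 14 the differing base was the same one, position 10598 of the 45S record in 28S rRNA, where 28S fragments carried G or T. The forms are shown with this base in capitals.
28S, positions 10579 to 10612, G form: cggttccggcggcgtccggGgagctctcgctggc
28S, positions 10579 to 10612, T form: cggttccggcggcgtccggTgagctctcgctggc
The G form stood at 712 RPM (5730 reads) in the biotin library and had 3 reads in the PNGase F library, a ratio of 0.000653 (0.000135 to 0.00191). The T form stood at 140 RPM and 810 RPM, a ratio of 5.80 (5.44 to 6.20). The sum of both was 852 RPM before and 810 RPM after. The same held for the sequence that ends 1 base earlier, whose G form went from 334 RPM (2685 reads) to 0 reads, at least 717-fold lower, and whose T form went from 87.5 to 398 RPM. For the sequence that ends 1 base later, the G form stood at 572 RPM and then at 1 read, and the T form at 116 and 633 RPM. The highest ratio of all, 6.44 (5.59 to 7.45), was that of the 32-base T form from 10579, at 28.6 and 184 RPM. The T forms from 10580 and 10581 to 10612 stood at 46.1 and 41.3 RPM before and at 272 and 165 RPM after.

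Summed over all sequences with the same 8 bases on either side, position 10598 read G in 76.9% of reads of the biotin library (76.4 to 77.4%) and in 0.0371% of the PNGase F library (0.0170 to 0.0705%). There were 36 such sequences with G, at 2737 RPM before and 1.40 RPM after, and 82 with T, at 822 RPM before and 3758 RPM after. The G share also differed widely among the other libraries. It was 5.81% in the input of differentiated cells and 17.7% in their WGA library. In undifferentiated HOXB8 cells it was 0.611% in the input, 7.58% in the biotin library and 0.0423% in the WGA library, and in neutrophils 43.6% in the input and 7.59% in the WGA library. The biotin library is the highest of the 9. The PNGase F share rests on 9 reads, and its interval holds the share in the WGA library of undifferentiated cells. Fewer reads stand behind the neutrophil shares, since both forms together were at 55.3 and 29.2 RPM there.

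**Figure D4:**
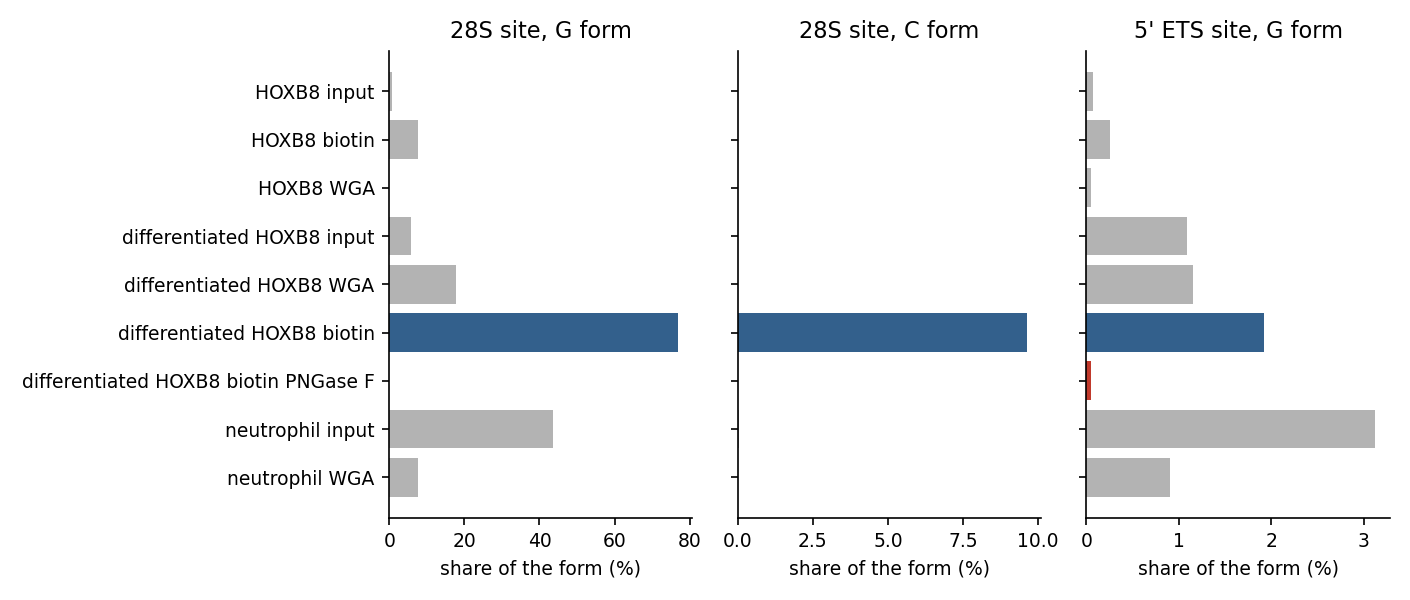
Share of reads with G, C and G at 3 sites of the 45S record (x axis, %, a scale for each site) in the 9 small RNA libraries, over all sequences with the same flanking bases. The biotin library of differentiated cells is blue and the PNGase F library red. The G form in 28S went from 76.9% to 0.0371%, the C form in 28S from 9.62% to 0.00874%, and the G form in the 5′ ETS from 1.92% to 0.0535%.

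Another such site lay in the 5′ ETS fragment itself. Position 654 of the 45S record, base 3 of the 21-base sequence, was T in nearly all reads and G in a few.
5′ ETS, positions 652 to 672, T form: tcTtagatcgatgtggtgctc
5′ ETS, positions 652 to 672, G form: tcGtagatcgatgtggtgctc
The G form went from 1748 to 52.3 RPM, 33.4-fold lower (30.02 to 37.37), and in the 22-base neighbour from 629 to 20.9 RPM, 30.1-fold lower. Over all sequences with the same 2 bases before and 8 bases after the site, G took 1.92% of reads in the biotin library and 0.0535% in the PNGase F library. It took 1.08% in the input of differentiated cells, 1.15% in their WGA library and 3.13% in the neutrophil input. Here the biotin library lies inside the range of the other libraries and the PNGase F library near its lower end, beside the WGA library of undifferentiated cells with 0.0470%.

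A further form was abundant in the biotin library alone. A 36-base sequence that the table counts in the miRNA class, but that matches 28S rRNA read for read, carried A or C at position 12638 of the 45S record.
28S, A form: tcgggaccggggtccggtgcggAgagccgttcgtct
28S, C form: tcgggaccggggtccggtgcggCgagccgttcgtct
The A form stood at 2612 RPM before and 2445 RPM after. The C form stood at 346 RPM (2785 reads) in the biotin library, had 2 reads in the PNGase F library and 0.263 RPM in the input. Over all sequences with the same flanks, C took 9.62% of reads in the biotin library (9.36 to 9.89%) and at most 0.0306% in each of the other 8 libraries.

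At position 9881 in 28S, a form that was rare in both libraries was higher after PNGase F. The G form of the 25-base 28S sequence, with the change T3G counted from its first base, stood at 35.7 RPM in the biotin library and 180 RPM after PNGase F. Its T form, the most abundant sequence of the table, was at 214556 and 212253 RPM. In the WGA library of differentiated cells this G form was at 192 RPM.
28S, positions 9879 to 9903, G form: gaGatagacagcaggacggtggcca

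With these forms added together, the libraries were closer still. When each sequence was summed with its most abundant partner that differs at 1 base, 8 of 334 groups (2.4%) were 2-fold apart, 3 higher and 5 lower after PNGase F. This sum was chosen after the values had been seen. Where the bases come from (the rRNA genes, the RNA or a step of the library) was not tested.

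The remaining sequences past 2-fold were few and short, except for the 101-base 5.8S read. Lower after PNGase F was a sequence of an rRNA record outside 45S, at 224 and 64.0 RPM (3.50-fold, 3.14 to 3.90), and a 16-base ncRNA-class sequence, at 218 and 75.05 RPM (2.90-fold, 2.62 to 3.22).
rRNA record, 20 bases: tgggtggtggtgcatggccg
ncRNA class, 16 bases: ggcgtggagccgggcg
The second is contained in the most abundant ncRNA-class sequence, ctggcgtggagccgggcg, which went from 5991 to 5444 RPM. A short 28S end, acagcaggacggtggcca (positions 9886 to 9903), went from 170 to 79.5 RPM (2.13-fold lower), and tgcggagagccgttcgtct (positions 12633 to 12651) from 165 to 81.4 RPM (2.03-fold lower). The first of these is the 3′ part of the leading 28S sequence and was at 2731 RPM in the input. Higher after PNGase F was aaagcggagtagagcagt, placed on chr17, from 71.8 to 158 RPM. It is the leading chr7 sequence with 2 more bases at its 5′ end.

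Within the genome class 3 sequences held 93.3% of the reads in the biotin library and 93.4% in the PNGase F library. The 18-base chrX sequence stood at 41961 and 44613 RPM and the 17-base chr11 sequence, contained in it, at 4863 RPM in both. The lowest ratio in this class at 100 RPM or more was that of ggttccggaggggagg, placed on chr19, at 130 and 71.0 RPM.

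tRNA fragments came mainly from 1 sequence of 18 bases, which held 66.5% of the class in the biotin library.
tRNA, 18 bases: gcattggtggttcagtgg
It begins like glycine tRNA, one of the tRNAs most often cut into fragments, and stood at 9102 and 7931 RPM, a ratio of 0.871 (0.862 to 0.881). It was at 2792 RPM in the input and 4954 RPM in the WGA library. The sequence tccgggtgccccctcca, which ends in the letters cca found at the 3′ end of mature tRNAs, went the other way, from 456 to 597 RPM, a ratio of 1.31 (1.25 to 1.37). The same sequence with 1 more base at its 5′ end stood at 474 and 530 RPM. Of 6 tRNA sequences with a mean of 100 RPM or more, 2 were higher and 4 lower after PNGase F.

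snoRNA fragments showed the same small scatter. The 2 leading sequences were 29-base fragments, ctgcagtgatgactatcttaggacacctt and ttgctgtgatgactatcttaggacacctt. snoRNAs guide the chemical modification of rRNA in the nucleolus. These fragments stood at 1629 and 1557 RPM and at 1330 and 1353 RPM. The highest ratio in the class was 1.59 (1.46 to 1.74) for tgcaaatgatggaaaactcaatgtt, at 110 and 175 RPM. The lowest was 0.715 (0.669 to 0.765) for a 74-base sequence, at 297 and 212 RPM. Of 24 snoRNA sequences with a mean of 100 RPM or more, 10 were higher and 14 lower after PNGase F, and 0 passed 2-fold, beside 5.71% of all sequences at that level.

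miRNAs are held in part only, since the table is titled as non-miRNA. A read was assigned to a miRNA where it lay within a mature sequence or held its first 16 bases, which matched 345 sequences to mature miRNAs of RefSeq (GRCm38.p6). Together they stood at 10309 RPM in the biotin library and 10883 RPM after PNGase F, a ratio of 1.06 (1.05 to 1.07). The 3 most abundant are shown with the seed (bases 2 to 8) in capitals, and miR-92a-3p and miR-25-3p share theirs.
miR-181a-5p: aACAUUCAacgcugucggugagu
miR-92a-3p: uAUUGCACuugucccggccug
miR-25-3p: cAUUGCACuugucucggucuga
miR-181a-5p, a regulator of blood cell development, stood at 1204 and 1359 RPM, a ratio of 1.13 (1.10 to 1.16). miR-92a-3p stood at 1153 and 1230 RPM, and miR-25-3p at 1124 RPM in both. The family let-7a, let-7b and let-7c went from 858 to 957 RPM and miR-16-5p from 362 to 409 RPM, while miR-24-3p was at 431 and 395 RPM. miR-223-3p, the miRNA that marks myeloid cells, was present at 201 and 163 RPM, a ratio of 0.811 (0.750 to 0.877), so a defining miRNA of the labelled lineage was detected in both libraries. Less abundant miRNAs scattered more, and 9 of the 49 groups of miRNAs shown at a mean of 20 RPM or more were 2-fold apart, all at less than 100 RPM in both libraries. Over all sequences of the table the share past 2-fold was 26.0% from 20 to 50 RPM and 15.4% from 50 to 100 RPM. The 49 groups also include miRNAs above 100 RPM, none of them 2-fold apart, so their share is not directly comparable. Most of the 9 had a mean of 20 to 50 RPM. Among miRNA groups of that level, the share past 2-fold was above the 26.0% of all sequences. These groups are few and most are sums over sequences, so the shares are of unlike units. Of the 9, miR-222-3p stood at 36.8 and 5.12 RPM, and miR-181c-5p at 7.21 and 47.3 RPM.

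The class names of the table do not always name the RNA. A sequence of the 45S record was rebuilt from its reads, which covered 6502 positions, and the sequences of the other classes were matched to it read for read. Of the ncRNA class, 89.6% of the level in the biotin library lay on this 45S sequence, and 89.4% after PNGase F. Of the miRNA class it was 52.4% and 52.2%. Its 16-base sequence gatcgatgtggtgctc, at 1666 and 1574 RPM, is the end of the 5′ ETS fragment, and the most abundant pre-miRNA-class sequence, ttagatcgatgtggtgctc, lies in the same fragment and stood at 1095 and 971 RPM. Among sequences with a mean of 100 RPM or more, the highest ratio in the miRNA class was 1.39 (1.31 to 1.49), for cgtccgtccccgctcggcgg at 232 and 323 RPM. In the ncRNA class it was 1.34 (1.21 to 1.49), for gcaaatcggtcgtccgacc at 87.5 and 117 RPM. The lowest in the pre-miRNA class was 0.716 (0.658 to 0.780), for atcccggacgagccccca at 185 and 133 RPM. With all of these counted in, ribosomal sequences took 66.7% of the table before and 66.9% after digestion. In the rRNA class itself, sequences outside the rebuilt 45S sequence stood at 67968 and 62329 RPM, lower by 0.12, and those inside it were higher by 0.02. For sequences of other classes without an exact match, the ratio was lower by 0.02 on the log2 scale in the ncRNA class. It was lower by 0.02 in the miRNA class and higher by 0.05 in the pre-miRNA class.

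Sequence composition went with the ratio only weakly. Among sequences with a mean of 100 RPM or more and reads in both libraries, the 94 with a GC content of 50% or less had a median log2 ratio of 0.05, and the 57 above 80% one of -0.10. The 79 that end in T had a median of 0.09 and the 118 that end in G one of -0.08. By first base, the 109 that begin with C had a median of -0.10 and the 108 that begin with T one of 0.02. The 29 sequences of 40 or more bases had a median of -0.13, with 7 above and 22 below 0. Overlapping sequences of 1 RNA share their bases and their length, so these are descriptions and not independent points.

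**Figure D5:**
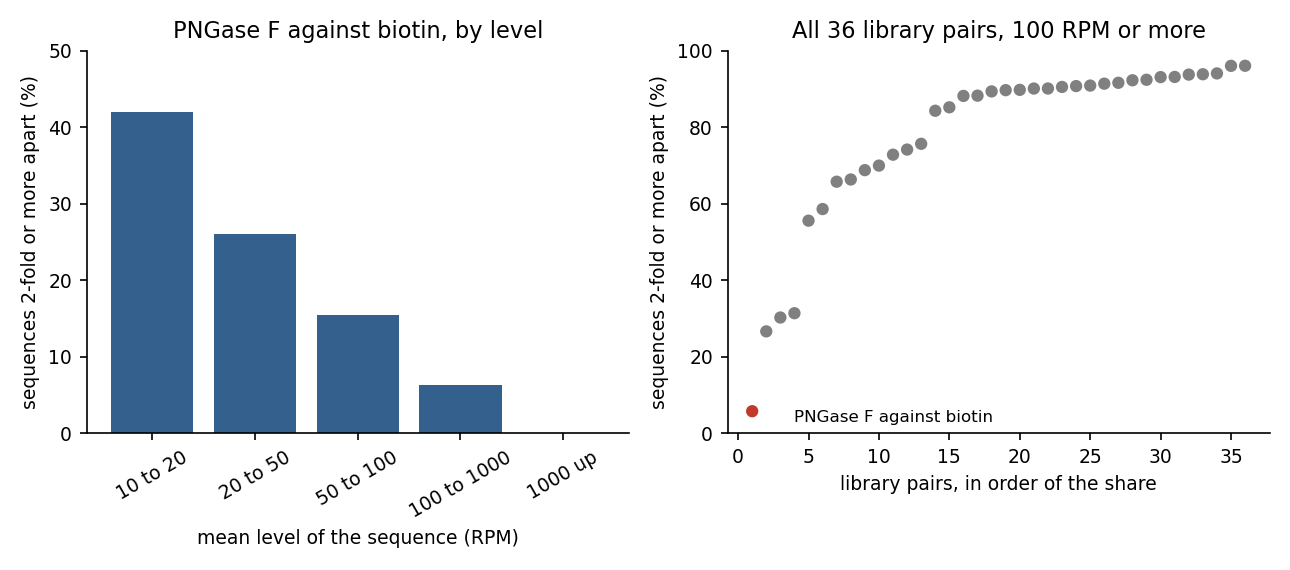
Left, share of sequences 2-fold or more apart between the PNGase F and biotin libraries (y axis, %), by the mean level of the sequence (x axis, RPM). Right, the same share at 100 RPM or more for all 36 pairs of the 9 libraries (y axis, %), in ascending order (x axis), with the pair described here in red at 5.71% and the next pair at 26.6%.

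Of all 36 pairs of the 9 libraries, this pair was the closest. The next was HOXB8 biotin against HOXB8 WGA, with 137 of 515 sequences past 2-fold (26.6%). The biotin and WGA libraries of differentiated cells had 94 of 311 (30.2%), and the PNGase F and WGA libraries 100 of 319 (31.3%), a pair that shares the WGA library with the one before. The biotin libraries of differentiated and undifferentiated cells had 242 of 413 (58.6%). Biotin against input in differentiated cells had 478 of 518 (92.3%). The median distance on the log2 scale, whatever its direction, was 0.20 for the PNGase F and biotin pair and 0.60 for the next pair by share.

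The closeness held for abundant sequences and faded with the level. Above a mean of 1000 RPM, 0 of 35 sequences were 2-fold apart and the median distance was 0.09 on the log2 scale. From 100 to 1000 RPM it was 20 of 315 (6.35%), from 50 to 100 RPM 61 of 395 (15.4%), from 20 to 50 RPM 301 of 1158 (26.0%), and from 10 to 20 RPM 698 of 1664 (41.9%), with a median distance of 0.80. Counting error alone does not cover this spread: in each of these ranges, the share of ratios whose counting interval did not hold 1 was between 70.4% and 77.1%. Differences ran in both directions, with 385 lower and 313 higher in the lowest range. Of 3567 sequences with a mean of 10 RPM or more, 142 had 0 reads in 1 of the 2 libraries. Counts by the level in 1 library alone have no such total here and are not shares. With reads in the biotin library at 10 RPM or more and 0 in the PNGase F library there were 537 sequences, and in the other direction 403. The highest of the second kind was a tRNA sequence, accgggcggaaacacca, with 302 reads (46.8 RPM) after PNGase F and 0 before, at least 126-fold higher. It stood at 19.7 RPM in the input and was listed at 0 in the WGA library. A second tRNA sequence of this kind, atcctgccgactacgcca, had 219 reads (33.96 RPM) after PNGase F and 0 before, and stood at 16.3 RPM in the input.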

How the data were processed

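Small RNA libraries were made with the Illumina TruSeq small RNA kit, per the labels' protocols. The deposited table gives each unique sequence its RPM, a read count scaled to 1000000 reads of the library, with an annotated record, a class, a position and a length. The labels name mm10. The trimming, the aligner and the filter behind the table are not given in the sources used here. RPM values of all 9 libraries fell on whole steps of a single read (tolerance 0.01 read), from which reads were recovered.

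Summed RPM, shares and ratios were computed with Python 3.11, pandas and scipy. Shares have exact Clopper-Pearson intervals and ratios exact conditional binomial intervals, at 95%, for counting error only, since PCR copies cannot be told from separate molecules here. A call is a ratio of 2-fold or more at a mean of 100 RPM or more. A count of 0 was set to 3 reads for a bound. With 1 library a side no count test was possible. Interval cover and read recovery were tested on simulated data.

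The text names each class at 1% or more, the 10 highest sequences, the 10 largest ratios in each direction, the highest sequence and the largest ratios of each class with 5 or more sequences at 100 RPM, and the records with the largest ratios. 1 named sequence is not reported here. Further sequences and the miRNAs were chosen after their values were seen. The annotated names do not give tRNA amino acids or snoRNA and snRNA families, so families were described by class. The members and lists were chosen with earlier results of these data known. The 4 RNA-seq libraries were not used. Alternatives covered the minimum level, the scaling, the pseudocount, the fold and the length.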

Additional observations from a re-analysis of the deposited data

How the results depend on the processing

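The count of 20 sequences past 2-fold stayed at 19 or 20 under each other scaling and pseudocount tried and was 16 with sequences of 20 bases or more. It was 1080 of 3567 at a minimum mean of 10 RPM, 6148 of 18385 with no minimum and a pseudocount of 1 RPM, 0 of 35 at 1000 RPM, 12 at a fold of 4 and 8 of 334 with forms that differ at 1 base summed. The class share farthest from equal was that of tRNA, at -0.0908 on the log2 scale. Its direction turned over distinct sequences (0.0327) and without the 10 highest sequences of each library (0.145). For sequences of 20 bases or more the largest distance was 0.130, with snoRNA lower. snRNA, at -0.122, turned to 0.117 for sequences of 20 bases or more. The largest distance of a read length range, 0.155 with reads of 40 or more bases lower, was 0.110 in the same direction without the 10 highest sequences. Over distinct sequences it was 0.0200, with reads of 16 to 19 bases lower, and the ranges of 30 to 39 and of 40 or more bases turned to 0.0036 and 0.0019. The difference in median log2 ratio between GC-rich and GC-poor sequences, -0.146, was -0.108 at a minimum of 10 RPM. The cause of these shifts was not tested. Of 51 values of single classes, lengths and families under alternatives, 37 kept their sign and 29 moved beyond their counting interval, with none farther from 0 than 0.145. No record passed 2-fold under any alternative tried, and the pair was the closest of 36 at both minimum levels. No paired analysis was possible because each small RNA group has 1 library.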
